A study of Mus musculus with 4 samples.

Results

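The regulators of G-protein signalling (RGS) described here are 9 genes, Rgs1, Rgs2, Rgs3, Rgs10, Rgs12, Rgs14, Rgs16, Rgs18 and Rgs19, taken by symbol from the 54752 genes counted in T-cell cultures of WT and Mek1/2-tKO mice. All 9 were present in the count files and all 9 passed the filter on low counts, as did 14330 genes in all. Naïve CD4+ T cells were isolated from spleens and cultured under Tfh-polarizing conditions, with plate-bound anti-CD3, anti-CD28, IL-6 and antibodies to block IFN-γ, IL-2, TGF-β and IL-4. Viable cells were sorted again on day 3 for RNA-seq, with 2 libraries per genotype. Mek1/2-tKO mice carried Cd4-Cre together with Map2k1 fl/fl and with Map2k2 fl/fl on a C57BL/6 background, so that both MEK kinases were targeted in cells in which the Cd4 promoter had driven Cre. WT mice were littermate controls, and whether they carried Cre or floxed alleles, and the age of the donors, is not given in the sources used here. It is also not stated whether the 2 libraries of a genotype came from separate mice or cultures, so the p values measure the spread between these libraries, which may be technical.

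RGS proteins act on the G proteins that relay signals from G-protein-coupled receptors. Their RGS domain speeds up hydrolysis of GTP by the Gα subunit, which returns the G protein to its resting state and shortens the signal. In lymphocytes the best known signals of this kind come from chemokine receptors, which couple mainly to Gi and steer migration. The members fall into families by sequence. The R4 family holds small proteins of little more than an RGS domain (Rgs1, Rgs2, Rgs16, Rgs18, and Rgs3 with long and short forms), the R12 family holds Rgs10 and the larger scaffolds Rgs12 and Rgs14, and Rgs19 belongs to the RZ family.

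The libraries held between 16330802 and 18931090 counts. Of the targeted genes, Map2k1 had 182 and 187 CPM (counts per 1000000 counts of the TMM-scaled library) in WT and 98.0 and 105 CPM in Mek1/2-tKO, with a log2 fold change of -0.86 (SE 0.08, adjusted p = 1.29e-06, edgeR quasi-likelihood test with Benjamini-Hochberg adjustment). Map2k2 had a log2 fold change of 0.15 (SE 0.08, adjusted p = 0.126 in the same edgeR test), and counts over a whole gene cannot separate transcripts without the floxed exons from intact ones. Here and below, a gene is called where edgeR gave both a 1.5-fold difference or more and an adjusted p below 0.05. The 2 Mek1/2-tKO libraries went against their label of CD4+ T cells. Cd4 had 297 and 289 CPM in WT and 18.8 and 25.1 CPM in Mek1/2-tKO. The summed level of 10 T-cell markers was 2564 to 2610 CPM in WT and 2037 to 2162 CPM in Mek1/2-tKO, where 6 of them were called lower and Thy1 was called higher. The other 3 were not called, at log2 fold changes of -0.55 for Lat, 0.20 for Cd3d and 0.24 for Cd3g. All 16 B-lineage markers were called higher (summed 1351 to 1364 CPM in WT and 7342 to 7366 CPM in Mek1/2-tKO, with Ighm and Cd79b the most abundant), as were all 8 NK-cell markers (138 CPM in WT and 774 to 852 CPM in Mek1/2-tKO, led by Nkg7 and Prf1). Both CD8 markers, Cd8a and Cd8b1, were called higher, at a sum of 59.3 to 67.4 CPM in WT and 214 to 238 CPM in Mek1/2-tKO. The γδ T-cell markers Trdc and Sox13, the only tested members of their list, were called higher too, and the summed list stood at 1.74 to 1.76 CPM in WT and 56.1 to 59.9 CPM in Mek1/2-tKO. Sox13, at 2 and 4 counts in WT, passed the filter on low counts only through the Mek1/2-tKO libraries. The part of these other cell types in the RGS values below was not tested, and in bulk RNA fewer cells of a type cannot be told apart from less RNA per cell.

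Promoter windows, from 250 bases before to 50 bases after a transcription start, were held by the RefSeq table (GRCm38.p6) for 6 of the 9 genes, in 10 windows. They were searched on both strands for the AP-1 motif TGANTCA, the CRE TGACGTCA, the ETS motif CCGGAA and the CArG box, which are bound by factors downstream of MEK and ERK among others. The windows printed here are that of Rgs16, which was called higher, that of Rgs2, which had the lowest log2 fold change among the members, and the 2 windows that held a match, with the match in capitals and each sequence written 5′ to 3′ on the strand of its gene.
Rgs16, chr1:153740103-153740402, strand +: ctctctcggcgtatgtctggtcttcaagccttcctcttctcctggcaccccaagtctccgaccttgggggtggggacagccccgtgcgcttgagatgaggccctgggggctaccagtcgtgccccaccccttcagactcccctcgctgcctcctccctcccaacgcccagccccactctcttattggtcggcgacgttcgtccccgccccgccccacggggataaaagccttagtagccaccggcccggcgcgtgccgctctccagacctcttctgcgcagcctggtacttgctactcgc
Rgs2, chr1:144004100-144004399, strand -: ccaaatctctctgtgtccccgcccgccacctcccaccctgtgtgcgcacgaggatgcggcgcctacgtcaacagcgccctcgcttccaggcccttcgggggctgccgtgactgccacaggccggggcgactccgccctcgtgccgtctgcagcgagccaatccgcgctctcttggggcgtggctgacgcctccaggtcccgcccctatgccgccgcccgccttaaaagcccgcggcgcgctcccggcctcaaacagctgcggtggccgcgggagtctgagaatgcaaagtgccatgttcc
Rgs19, chr2:181691768-181692067, strand -: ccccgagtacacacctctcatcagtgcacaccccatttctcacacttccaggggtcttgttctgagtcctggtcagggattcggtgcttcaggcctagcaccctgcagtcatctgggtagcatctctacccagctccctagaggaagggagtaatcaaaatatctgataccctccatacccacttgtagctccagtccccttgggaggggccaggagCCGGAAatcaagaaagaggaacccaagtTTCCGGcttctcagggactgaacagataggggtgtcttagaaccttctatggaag
Rgs12, chr5:34998828-34999127, strand +: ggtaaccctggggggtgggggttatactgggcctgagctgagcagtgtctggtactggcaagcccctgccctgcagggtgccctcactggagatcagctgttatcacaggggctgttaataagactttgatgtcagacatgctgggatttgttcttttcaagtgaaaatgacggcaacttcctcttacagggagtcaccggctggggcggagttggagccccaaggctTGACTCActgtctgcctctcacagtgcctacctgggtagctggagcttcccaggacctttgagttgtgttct
The printed Rgs19 window held the ETS motif at position -33 and, on the opposite strand, at position -5. The printed Rgs12 window held an AP-1 motif at position -22. Positions are counted from the start site to the first base of the match. Both genes have other windows nearer their 5′ ends, and these held none of the 4 motifs. The other 8 windows held none of the 4 motifs. Among all 32851 windows of the table, 14.9% held the ETS motif, 7.81% the AP-1 motif, 1.79% the CRE and 1.63% a CArG box. A match describes letters in a window and does not show that a factor bound there.

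To ask whether these regulators differed between the genotypes, the libraries labelled Mek1/2-tKO were compared with WT by edgeR. Rgs16 and Rgs18 rose in Mek1/2-tKO cells and no member was called lower. Thus 2 of the 9 members (22.2%) were called higher, beside 19.3% of all genes tested, and 0 of 9 were called lower, beside 16.4% of all genes tested. Both members with a lower level at an unadjusted p under 0.05, Rgs2 and Rgs10, stayed under the fold threshold, and DESeq2 also called 0 lower. At an adjusted p under 0.05 whatever the fold, 7 members differed (5 higher and 2 lower), beside 55% of all genes. The CPM of the genotypes did not overlap for 7 members, beside 78.3% of all genes. The median log2 fold change of the members was 0.33, against 0.02 over all genes tested, and their median absolute log2 fold change was 0.42, against 0.51. The share of members called higher was near that of all genes. It includes Rgs18, which passed the filter on low counts only through the Mek1/2-tKO libraries, so its call is no support for the count. With at least 10 counts required in every library, 1 member, Rgs16, was called higher.

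**Figure D1:**
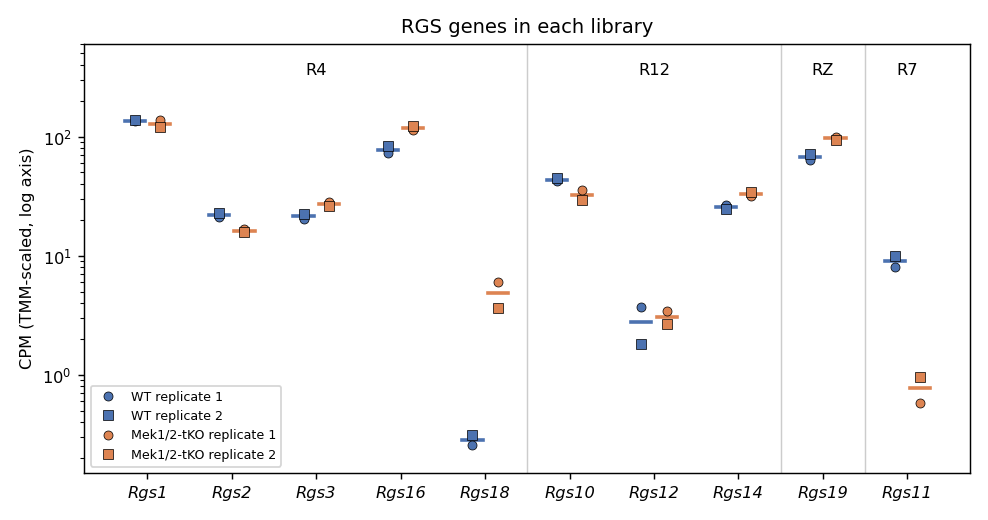
CPM of each RGS gene (TMM-scaled, log axis) in the 4 libraries, with circles for replicate 1, squares for replicate 2 and a bar for the mean of each genotype (n = 2), ordered by family. Rgs18 lay at 0.257 and 0.311 CPM in WT and 6.07 and 3.62 CPM in Mek1/2-tKO, Rgs11 shows the opposite order, and Rgs1 and Rgs12 overlap between the genotypes.

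Among the R4 members, Rgs18 had the largest fold change. Rgs18 (ENSMUSG00000026357.3, chromosome 1, 144752683 to 144775435, GRCm38, minus strand) encodes a regulator that is abundant in platelets and megakaryocytes. In WT it had 5 and 6 counts, and in Mek1/2-tKO 94 and 68 counts, or 0.257 and 0.311 CPM against 6.07 and 3.62 CPM. The Mek1/2-tKO libraries were both above the WT libraries, although they differed between themselves more than the WT libraries did. The means of WT and Mek1/2-tKO were 0.284 ± 0.0386 and 4.85 ± 1.73 CPM (SD, n = 2 each). The log2 fold change was 4.06 (SE 0.51, adjusted p = 1.7e-05, edgeR quasi-likelihood test), or 16.6-fold with a 95% interval of 7.75 to 35.7. Rgs18 passed the filter on low counts only through the Mek1/2-tKO libraries, and it was not tested when at least 10 counts were required in every library. Its WT counts stood at or under 6 counts, the limit set by 3 read pairs when both mates are counted, so the size of the fold is uncertain and its call is no support for the count over the members. Of the 6 platelet markers, 2 were tested and both were called higher. The summed list was 1.40 to 3.64 CPM in WT and 8.66 to 9.69 CPM in Mek1/2-tKO, with Pf4 and Itga2b the most abundant. Pf4, at 39 and 8 counts in WT, needed the Mek1/2-tKO libraries to pass the filter on low counts. Gp1bb was listed at 0 in all 4 libraries, but 92.9% of its exon bases are shared with genes on the same strand, where reads may not have been assigned to it. Gp9 and Treml1, which share no exon bases, were at 0 in WT and at no more than 6 counts in Mek1/2-tKO. The 6 tested myeloid markers of 9 were called higher as well, with a sum of 4.26 to 4.62 CPM in WT and 20.6 to 26.7 CPM in Mek1/2-tKO, led by Lyz2 and Cd68. Among them, Adgre1 and S100a8 had 0 counts in both WT libraries, and S100a9 had 2 and 2 counts. They passed the filter on low counts only through the Mek1/2-tKO libraries, so they could be called only in that direction. Lyz2, at 8 and 12 counts in WT, likewise needed the Mek1/2-tKO libraries to pass it. Also called higher were 3 tested dendritic-cell markers of 5, with a sum of 7.88 to 9.19 CPM in WT and 26.4 to 29.2 CPM in Mek1/2-tKO, led by Zbtb46 and Flt3. The part of these cells in the Rgs18 counts was not tested.

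Rgs16, which is induced when T cells are activated and restrains their migration to chemokines, was the other member called. Rgs16 (ENSMUSG00000026475.7, chromosome 1, 153740349 to 153745468, plus strand) had 72.4 and 82.7 CPM in WT and 114 and 122 CPM in Mek1/2-tKO. Both Mek1/2-tKO libraries lay above both WT libraries. The means were 77.5 ± 7.29 and 118 ± 5.47 CPM (SD, n = 2 each), and the log2 fold change was 0.61 (SE 0.10, adjusted p = 0.000117, edgeR quasi-likelihood test), or 1.52-fold with a 95% interval of 1.32 to 1.75. The estimate sits close to the threshold of 1.5-fold, and the log2 fold change was 0.51 without WT replicate 1, 0.55 without Mek1/2-tKO replicate 2 and 0.52 when only library size was used for scaling, which ended the call each time through the fold and not the p value. The antisense gene Gm28513 overlaps 10.1% of the exon bases of Rgs16 and was listed at no more than 1 count in any library.

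The remaining R4 members were not called. Rgs1, which limits responses of lymphocytes to chemokines (ENSMUSG00000026358.13, chromosome 1, 144242296 to 144249242, minus strand), had the largest mean CPM of the 9 members in each genotype, with 134 and 137 CPM in WT and 138 and 120 CPM in Mek1/2-tKO. The genotypes overlapped, and the log2 fold change was -0.08 (95% interval -0.27 to 0.11). Rgs2, which acts preferentially on Gq (ENSMUSG00000026360.9, chromosome 1, 143999338 to 144004161, minus strand), had 21.2 and 23.0 CPM in WT and 16.9 and 15.7 CPM in Mek1/2-tKO. Its libraries did not overlap, and at 1.36-fold lower (log2 fold change -0.44, 95% interval -0.76 to -0.13, adjusted p = 0.0188 in edgeR's quasi-likelihood test) it passed the p threshold but not the fold threshold. Rgs3, which has long and short forms that whole-gene counts do not separate (ENSMUSG00000059810.18, chromosome 4, 62559847 to 62704001, plus strand), had 20.5 and 22.5 CPM in WT and 28.1 and 26.1 CPM in Mek1/2-tKO. Its libraries did not overlap either, with a 1.26-fold higher mean (log2 fold change 0.33, 95% interval 0.05 to 0.62, adjusted p = 0.0474 in edgeR's quasi-likelihood test). DESeq2 gave an adjusted p of 0.0732 for Rgs2 and 0.163 for Rgs3, and the value for Rgs3 with the replicate number as a block in edgeR was 0.055.

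The R12 members did not share a direction. Rgs10, a small regulator selective for Gi (ENSMUSG00000030844.11, chromosome 7, 128373621 to 128418758, minus strand), had 42.3 and 44.6 CPM in WT and 35.8 and 29.2 CPM in Mek1/2-tKO. Both Mek1/2-tKO libraries were lower, by 1.34-fold in the mean (log2 fold change -0.42, 95% interval -0.69 to -0.15, adjusted p = 0.011 in edgeR's quasi-likelihood test), which is under the fold threshold. Rgs14, a scaffold with Ras-binding domains and a GoLoco motif that holds Gαi in its GDP form (ENSMUSG00000052087.14, chromosome 13, 55369732 to 55384687, plus strand), had 26.9 and 24.7 CPM in WT and 32.0 and 34.2 CPM in Mek1/2-tKO. These libraries were apart in the other direction, at 1.28-fold (log2 fold change 0.36, 95% interval 0.09 to 0.63, adjusted p = 0.024 in edgeR's quasi-likelihood test), also under the fold threshold, and DESeq2 gave an adjusted p of 0.0925. Rgs12, the related large scaffold (ENSMUSG00000029101.16, chromosome 5, 34949445 to 35039644, plus strand), had 3.70 and 1.82 CPM in WT and 3.42 and 2.66 CPM in Mek1/2-tKO. The WT libraries spanned both Mek1/2-tKO libraries, and the 95% interval of its log2 fold change ran from -0.72 to 1.00, which includes a 1.5-fold difference either way.

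Rgs19, also known as GAIP, is the RZ member, a regulator of Gi-class subunits that has a cysteine string and is bound by GIPC. Rgs19 (ENSMUSG00000002458.13, chromosome 2, 181688419 to 181693977, minus strand) had 63.9 and 70.9 CPM in WT and 99.2 and 93.8 CPM in Mek1/2-tKO. The genotypes did not overlap. The means were 67.4 ± 4.92 and 96.5 ± 3.84 CPM (SD, n = 2 each) and the log2 fold change was 0.52 (SE 0.10, adjusted p = 4.32e-04, edgeR quasi-likelihood test), or 1.43-fold with a 95% interval of 1.24 to 1.65. Rgs16 passed and Rgs19 missed the fold threshold with intervals that overlap over most of their length, and the difference between them was not tested. Without WT replicate 2 the log2 fold change of Rgs19 was 0.59, and it was called.

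**Figure D2:**
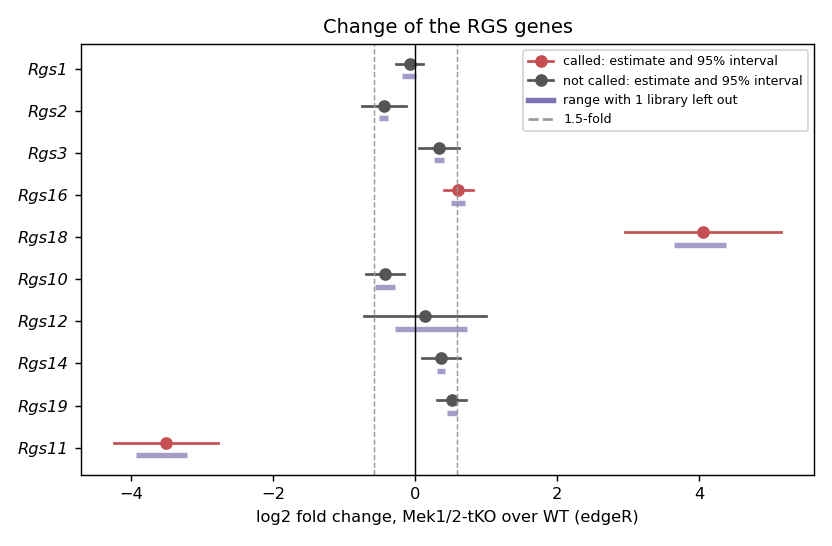
Log2 fold change of Mek1/2-tKO over WT for each RGS gene, with its 95% interval from edgeR, the range of estimates with 1 library left out in purple, and dashed lines at 1.5-fold. Rgs18 at 4.06 and Rgs11 at -3.51 lie far outside the dashed lines, Rgs16 at 0.61 lies just past the line, and the intervals of Rgs1 and Rgs12 include 0.

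Levels of different genes were compared as CPM per kilobase of annotated exon. On this scale the most abundant members in WT were Rgs16 (33.1) and Rgs19 (30.2), whose libraries overlapped, followed by Rgs10 (25.4) and Rgs1 (19.6). Rgs2 (6.10) and Rgs14 (6.09) came next and overlapped, and Rgs3 (1.99), Rgs12 (0.325) and Rgs18 (0.140) were the lowest. In Mek1/2-tKO the order was Rgs16 (50.4), Rgs19 (43.3), then Rgs10 (19.0) and Rgs1 (18.5), which overlapped, then Rgs14 (7.81), Rgs2 (4.49), and Rgs3 (2.51) with Rgs18 (2.39), which overlapped, and Rgs12 (0.359). Rgs18 was thus the lowest member in WT and stood beside Rgs3 in Mek1/2-tKO. The order depended on the length used. The annotated exons of Rgs1 cover its whole span of 6947 bases, since some of its transcripts retain introns, while its longest coding transcript has 3841 bases. Per kilobase of the longest coding transcript, Rgs10 (49.4) and Rgs19 (44.6) led in WT, ahead of Rgs1 (35.4) and Rgs16 (33.1), and Rgs19 (63.9) and Rgs16 (50.4) led in Mek1/2-tKO.

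The sum of the 9 levels per kilobase of annotated exon was 118 and 128 in WT and 152 and 145 in Mek1/2-tKO, a ratio of the means of 1.21 (123 ± 6.53 and 149 ± 4.87, SD, n = 2 each). The share of Rgs16 in this sum was 26.9% in WT and 33.9% in Mek1/2-tKO, and that of Rgs19 was 24.6% and 29.1%. The share of Rgs10 was 20.7% in WT and 12.8% in Mek1/2-tKO, that of Rgs1 15.9% and 12.4%, and that of Rgs2 4.96% and 3.02%. Rgs18 made up 0.113% of the sum in WT and 1.60% in Mek1/2-tKO. With 2 libraries against 2, the smallest two-sided p of an exact permutation test is 0.333, so the sum was not tested.

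**Figure D3:**
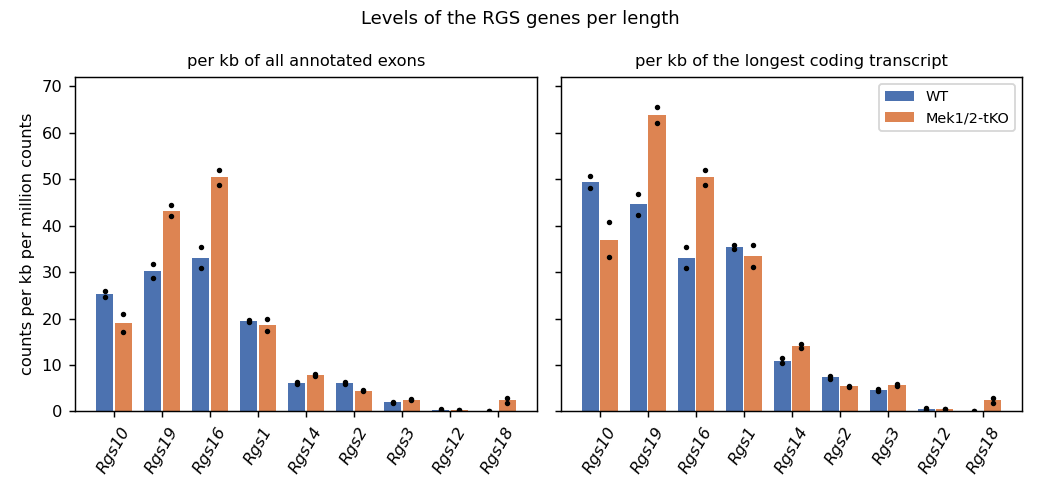
CPM per kilobase of the 9 RGS genes, per kilobase of all annotated exons (left) and of the longest coding transcript (right), as the mean of 2 libraries (bars) and each library (points). Rgs16 and Rgs19 have the tallest Mek1/2-tKO bars in both panels, while the first place in WT passes from Rgs16 on the left to Rgs10 on the right.

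Rgs2, Rgs1 and Rgs18 lie on the minus strand of chromosome 1 in a stretch of 776 kb that also holds Rgs13 and Rgs21. These neighbours did not share a direction, with log2 fold changes of -0.44 for Rgs2, -0.08 for Rgs1 and 4.06 for Rgs18. Rgs13 had 2 counts in 1 WT library and 0 in the others, and Rgs21 was at 0 in all 4 libraries. Rgs1 and Rgs18 are 503 kb apart. Rgs16 lies 8965 kb further along the chromosome.

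The files held 12 RGS genes beyond these members, and Rgs11 was the only one that passed the filter on low counts. It fell. Rgs11 (ENSMUSG00000024186.15, chromosome 17, 26202951 to 26211324, plus strand), of the R7 family, whose proteins pair with Gβ5, had 156 and 192 counts in WT and 9 and 18 counts in Mek1/2-tKO, or 8.01 and 9.96 CPM against 0.581 and 0.959 CPM. The WT libraries were both far above the Mek1/2-tKO libraries, with a log2 fold change of -3.51 (SE 0.34, adjusted p = 1.56e-06, edgeR quasi-likelihood test), or 11.4-fold lower. Gnb5, which encodes Gβ5, fell too, from 42 and 66 counts to 14 and 23 counts (log2 fold change -1.37, SE 0.46, adjusted p = 0.021 in the same edgeR test). The antisense gene Arhgdig shares 3.28% of the exon bases of Rgs11 and was not called, at 284 and 327 counts in WT and 374 and 402 counts in Mek1/2-tKO. Of the other 11 genes, 8 were at 0 in all 4 libraries, and Rgs8, Rgs9 and Rgs13 had at most 14 counts in any library.

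The surrounding pathway was read from lists of its parts, beside 19.3% of all genes tested called higher and 16.4% called lower. The relatives with an RGS-like domain numbered 9, all tested, of which 4 fell and none rose (median log2 fold change -0.54). Axin2, a scaffold of the β-catenin destruction complex, had 91 and 83 counts in WT and 20 and 10 counts in Mek1/2-tKO (log2 fold change -2.32). It needed the WT libraries to pass the filter on low counts. Arhgef12, a guanine nucleotide exchange factor activated by the G12 class, had a log2 fold change of -1.57, and Snx25 one of -0.70. Among 9 tested Gα subunits of 13, Gna15 of the Gq class rose from 2.31 and 4.10 CPM to 19.6 and 17.5 CPM, while Gna13 of the G12 class fell from 197 and 176 CPM to 78.4 and 82.6 CPM, and the other 7 were not called. Gnai2, a Gi subunit on which RGS proteins act, had a log2 fold change of 0.15 and was not called. Of 7 tested Gβ and Gγ subunits of 15, Gng2 (log2 fold change 1.08) and Gng5 (0.61) rose and Gnb5 fell, although 20.4% of the exon bases of Gng2 are shared with another gene and the strand setting of the counting is not given.

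Most of the listed receptors upstream were called. Of 21 tested receptors of lymphocytes of 22, 14 rose (66.7%) and 3 fell (14.3%), with a median log2 fold change of 1.29. Over all genes tested, 19.3% were called higher and 16.4% lower. Ccr2, a receptor of monocyte-recruiting chemokines, had 0.411 and 0.985 CPM in WT and 11.7 and 11.1 CPM in Mek1/2-tKO (log2 fold change 4.02). Ccr9, a gut-homing receptor, had 2 and 2 counts in WT and 36 and 46 counts in Mek1/2-tKO, and 3 other genes, partly on the opposite strand, together cover 21.5% of its exon bases. Ccr9 passed the filter on low counts only through the Mek1/2-tKO libraries. Ccr2, at 8 and 19 counts in WT, also needed the Mek1/2-tKO libraries to pass it. Both count among the 14 receptors that rose. Ccr8 (log2 fold change -3.40), Ccr4 (-1.63) and S1pr2 (-0.78) fell. Of the 12 receptor kinases, arrestins and other modulators, the kinases Grk3 (log2 fold change 3.37) and Grk4 (1.33) rose, and the arrestin Arrb1 (-1.81) and Gpsm2 (-0.85) fell. Of 22 tested effectors of 23, 2 rose (9.09%) and 6 fell (27.3%). Pik3r6, a subunit of PI3Kγ, had 6 and 10 counts in WT and 33 and 65 counts in Mek1/2-tKO. It needed the Mek1/2-tKO libraries to pass the filter on low counts. The phosphodiesterase Pde4a, which rose too, had a log2 fold change of 0.95. The adenylyl cyclase Adcy9 fell from 48 and 36 counts to 2 and 0 counts, and Plcb4 (log2 fold change -2.03) and Pde4d (-1.87) fell as well. Plcb4 had 6 and 9 counts in Mek1/2-tKO. Adcy9 and Plcb4 passed the filter on low counts only through the WT libraries, so they could be called only lower. The markers of B, NK, γδ T and CD8 T cells given above were higher in the same 2 libraries, and their part in these calls was not tested.

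**Figure D4:**
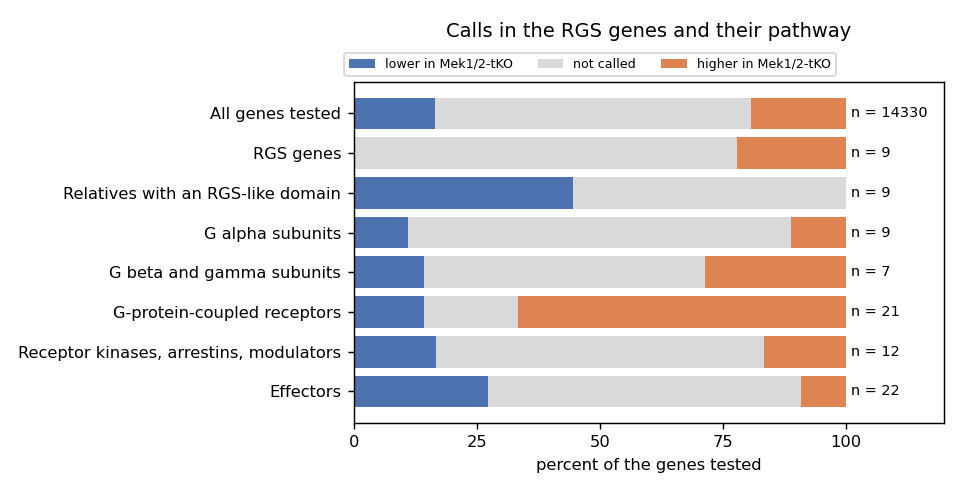
Percent of the tested genes of each list that were called lower (blue), not called (grey) or called higher (orange) in Mek1/2-tKO, with the number tested beside each bar. The RGS bar (2 of 9 called higher, 0 lower) stands near the bar of all genes for higher calls, whereas 14 of 21 receptors were called higher and 4 of 9 relatives with an RGS-like domain were called lower. The RGS calls include Rgs18, which passed the filter on low counts only through the Mek1/2-tKO libraries. Ccr2, Ccr9 and Pik3r6 likewise needed the Mek1/2-tKO libraries to pass it, and Axin2, Adcy9 and Plcb4 needed the WT libraries.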

How the data were processed

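RNA-seq of 2 WT and 2 Mek1/2-tKO libraries was analysed. The authors trimmed reads with Trimmomatic 0.36, mapped them to GRCm38 with a mapper written as STRA, counted uniquely mapped reads with featureCounts of Subread 1.5.1 and deposited raw counts per gene. The strand setting and annotation release are not given in the sources used here. Among genes with 1 to 20 counts, 65.4 to 68.2% of values were even, as when both mates of a pair are counted, so the floor of 3 read pairs was set at 6 counts (0.317 to 0.367 CPM), which covers counting error only.

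Symbols were matched to 54723 of 54752 identifiers. Counts were analysed in R 4.3.3 with edgeR 4.0.16 (filterByExpr, TMM, robust quasi-likelihood test, Benjamini-Hochberg adjustment over 14330 genes), with DESeq2 1.42.0 as an alternative, and figures with Python 3.11.15 and matplotlib 3.10.9. The common dispersion was 0.00842, and replicates differed by more than sampling noise (chi-square per gene 4.07 in WT and 10.1 in Mek1/2-tKO). Of 200 changed genes among 14330 simulated for WT against Mek1/2-tKO, edgeR recovered 71% of the 2-fold and 91% of the 4-fold changes and called 5 unchanged genes. The simulation held no smaller changes and changed far fewer genes than the 35.8% called in the data. These rates therefore do not apply to the smaller changes of the members. CPM and levels per kilobase used TMM library sizes. Alternatives were DESeq2, its size factors, library size alone, a likelihood-ratio test, other filters and thresholds, a replicate block and leaving out each library. Halved counts, coding transcript lengths and the placing of Rgs11 beside the members were added after the data were seen.

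The members and lists were chosen with earlier results of these data known. All members, each other tested RGS gene, up to 3 called genes per pathway list and direction, taken by size of the fold change, and the 2 most abundant genes of each marker list with any called against its direction were named. Gnai2, Cd4, Cd3d, Cd3g, the myeloid markers Adgre1, S100a8 and S100a9, and the platelet markers Gp1bb, Gp9 and Treml1 fall outside this rule. They were chosen after their values were seen. One listed receptor that this rule takes is counted but not reported here by name. No protein sequences were compared, and 3 γδ T-cell symbols were not matched.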

Additional observations from a re-analysis of the deposited data

How the results depend on the processing

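Over all genes, 1725 were higher and 1040 lower when a 2-fold change was required, and 3983 were higher and 3903 lower at an adjusted p under 0.05 with no fold threshold. Of the members, 5 were then higher and 2 lower (Rgs2 and Rgs10). The number called higher was 1 with at least 10 counts in every library (Rgs16, since Rgs18 was not tested), with library size alone (Rgs18) and when a 2-fold change was required (Rgs18), and 1 to 3 with a library left out. Rgs18 alone was called without WT replicate 1 or without Mek1/2-tKO replicate 2, and Rgs19 was added without WT replicate 2. With all libraries, Rgs18 and Rgs11 kept their calls wherever they were tested. With a library left out, the log2 fold change of Rgs18 was 3.64 to 4.38 and that of Rgs11 was -3.94 to -3.22. Rgs18 still passed the filter on low counts only through Mek1/2-tKO libraries in these last fits, so they are no support for its call. With a library left out, the log2 fold change of Rgs1 ranged from -0.18 to 0.011, above 0 without Mek1/2-tKO replicate 2, and that of Rgs12 ranged from -0.29 to 0.74, at -0.05 without Mek1/2-tKO replicate 1 and -0.29 without WT replicate 2. The cause was not tested. Without WT replicate 2, the adjusted p in edgeR was 0.125 for Rgs2, 0.092 for Rgs3, 0.0651 for Rgs10 and 0.194 for Rgs14. That of Rgs3 was also 0.284 without WT replicate 1 and 0.122 without Mek1/2-tKO replicate 1, and that of Rgs14 was 0.0622 without WT replicate 1 and 0.0675 without Mek1/2-tKO replicate 2.

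The replicate numbers shared by the genotypes mark no stated litter or day, and deviations of same-numbered libraries correlated at -0.0262. A fit with the replicate number as a block called 2652 genes higher and 2300 lower, among them 2 members higher and 0 lower, with Rgs16 at 0.61 and Rgs18 at 4.02 on the log2 scale. The ratio of the summed RGS levels was 1.14 with library size alone or with coding transcript lengths, in place of 1.21. Low WT counts limit Rgs18, and the WT libraries differed for Rgs12, at 72 and 35 counts.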

Other observations

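Gm7266, which lies between Rgs1 and Rgs18 on chromosome 1, had 61 and 66 counts in WT and 100 and 122 counts in Mek1/2-tKO. It was called higher, with a log2 fold change of 0.98 (adjusted p = 0.00685, edgeR quasi-likelihood test). It was picked for its position between these members after its values were seen.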
